A study of Mus musculus with 24 samples.

Results

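The immediate early response genes described here were Fos, Fosb, Jun, Junb, Egr1, Atf3, Ier2, Nr4a1, Dusp1 and Myc, 10 of the 51138 genes in the table of counts. They were chosen by name, as genes of the AP-1 family and its companions that cells switch on within minutes of a stimulus and that also respond to the handling of tissue, and all 10 were counted in all 24 samples. Bulk RNA was sequenced from whole constructs taken from under the skin at week 2, with 1 sample per mouse and 4 mice in each of 6 groups. All hosts were male and female Foxp3-DTR/eGFP mice 8 to 9 weeks old, in which the Foxp3 locus drives both the diphtheria toxin receptor and a green fluorescent protein, so that regulatory T cells (Treg) can be removed with the toxin. The constructs consisted of biphasic calcium phosphate granules, a ceramic bone substitute, and were implanted without cells (BCP), with bone marrow mesenchymal stromal cells (MSC) of C57BL/6J donors (BCP+MSC), with MSC kept in 10 nM of the lipid mediator resolvin E1 before implantation (BCP+MSC+RvE1), or with MSC cocultured with Treg (BCP+MSC+Treg). These Treg had been activated, were added to the MSC on the granules and were implanted together with them. A further pair of groups carried BCP+MSC constructs in mice given diphtheria toxin at 50 µg/kg, without RvE1, (dep)BCP+MSC, or with 1 µM RvE1 injected daily at the implant, (dep)BCP+MSC+RvE1inj. No toxin was given to the other 4 groups, and no mice that lacked the receptor but received toxin were analysed here, so an effect of the toxin itself cannot be told apart from the loss of Treg. No injection of vehicle alone was described for (dep)BCP+MSC, so an effect of injected RvE1 cannot be told apart from that of the daily injection. Counts of (dep)BCP+MSC stood in columns numbered 1, 2, 4 and 5, and the last pair are called columns 4 and 5 here because they could not be matched to a replicate number.

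Immediate early genes are transcribed without new protein synthesis when growth factors, cytokines, stretch, cell stress or injury activate MAP kinases, calcium signals or cyclic AMP. Their promoters are held ready by transcription factors that are already present, such as the serum response factor and CREB, and their mRNAs are short-lived, so that a burst fades unless the stimulus is repeated. Fos and Fosb proteins pair with Jun or Junb to form AP-1, which in bone and wounds drives genes of matrix turnover, osteoblast and osteoclast differentiation and inflammation.

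Promoter sequences were looked up for the members in RefSeq (GRCm38.p6), and 7 of the 10 matched an entry, namely Fos, Fosb, Jun, Junb, Atf3, Nr4a1 and Dusp1. Entries were not matched for Egr1, Ier2 and Myc. The 250 bases before each start were searched on both strands for 6 motifs. The core of the cyclic AMP response element, TGACG, was present in 6 of the 7 windows, against 17.9% of 27025 promoters of the same length, and the window without it was that of Jun. The only core of Atf3 lay 7 to 3 bases before the start used, where an annotated exon had already begun. That start lies within the counted Atf3 gene and not at its outer end. The full element TGACGTCA, which contains the core on both strands, was found in Dusp1 (1.62% of all promoters). The EGR site GCGGGGGCG was found in Fosb and Nr4a1 (2.56%) and the TATA box TATAAA in Fos (13%). No window held the AP-1 site TGACTCA (4.43%) or the CArG box of the serum response factor (1.4%), which says only that these letters were not in these windows. The 4 members below are shown because their mRNA levels were correlated over the 24 animals, as described further on. Each sequence is written 5′ to 3′ on the strand of the gene and ends at the base before the first annotated exon, with cores, the full element and EGR sites in capitals.
Fos, chr12:85473740-85473889, plus strand: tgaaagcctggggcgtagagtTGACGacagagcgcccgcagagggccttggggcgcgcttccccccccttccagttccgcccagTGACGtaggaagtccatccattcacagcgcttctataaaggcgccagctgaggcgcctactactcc
Fosb, chr7:19310052-19310195, minus strand: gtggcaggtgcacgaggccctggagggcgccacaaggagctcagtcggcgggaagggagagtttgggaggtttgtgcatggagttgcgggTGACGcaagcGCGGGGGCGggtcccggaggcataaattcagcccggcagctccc
Nr4a1, chr15:101266696-101266845, plus strand: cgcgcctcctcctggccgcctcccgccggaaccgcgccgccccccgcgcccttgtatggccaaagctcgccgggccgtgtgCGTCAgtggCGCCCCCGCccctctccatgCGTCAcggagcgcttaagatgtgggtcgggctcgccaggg
Dusp1, chr17:26508520-26508622, minus strand: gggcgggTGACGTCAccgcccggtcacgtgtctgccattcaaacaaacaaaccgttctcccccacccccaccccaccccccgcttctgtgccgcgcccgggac
Fos and Nr4a1 each carried more than 1 core in the stretch shown, those of Nr4a1 reading CGTCA because they lie on the opposite strand. In Fosb and Nr4a1 the EGR site lay within a few bases of a core. A match of letters is a description and shows no binding in these constructs.

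Depth differed 17.0-fold between samples, from 8482701 to 144417743 counts, and the lowest count of any member in any sample was 22 (Fosb), so every member stood above the floor of 3 counts, which corresponds to 0.0223 to 0.299 CPM (counts scaled to a common library total) over the samples and covers counting error only. All levels below are CPM scaled by TMM unless a level per length is named. In whole constructs fewer cells of a type and less RNA per cell cannot be told apart. The samples differed in tissue content: the mean log2 CPM of 25 skeletal muscle markers was 3.64 in BCP+MSC replicate 2 against a median of 9.33, that of 15 skin markers was highest, at 3.20, in (dep)BCP+MSC replicate 1, and that of 7 adipocyte markers was 0.215 in BCP replicate 4 against a median of 7.32. Osteoblast markers were low throughout (mean log2 CPM −0.465 to 2.89), while fibroblast (8.45 to 11.07) and macrophage markers (8.24 to 9.60) were high in every sample.

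Per kilobase of exon, Atf3 was the most abundant member, with a median of 106 over the 24 samples, followed by Junb (56.3), Dusp1 (44.6), Jun (41.5), Ier2 (27.7), Fos (24.9), Nr4a1 (16.9), Egr1 (12.4), Myc (10.6) and Fosb (1.08). Few neighbours in this order were separated beyond their spread over samples. Jun lay above Ier2 in 22 of 24 samples (log2 difference 0.56 ± 0.54, SD) and Myc above Fosb in 21 (2.79 ± 2.04), whereas for the other 7 neighbouring pairs the mean difference was smaller than its SD. The members also differed in how far they varied. Fosb spanned 357-fold from the lowest to the highest sample, Fos 19.1-fold, Egr1 16.3-fold and Nr4a1 15.6-fold, against 3.05-fold for both Jun and Myc.

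**Figure D1:**
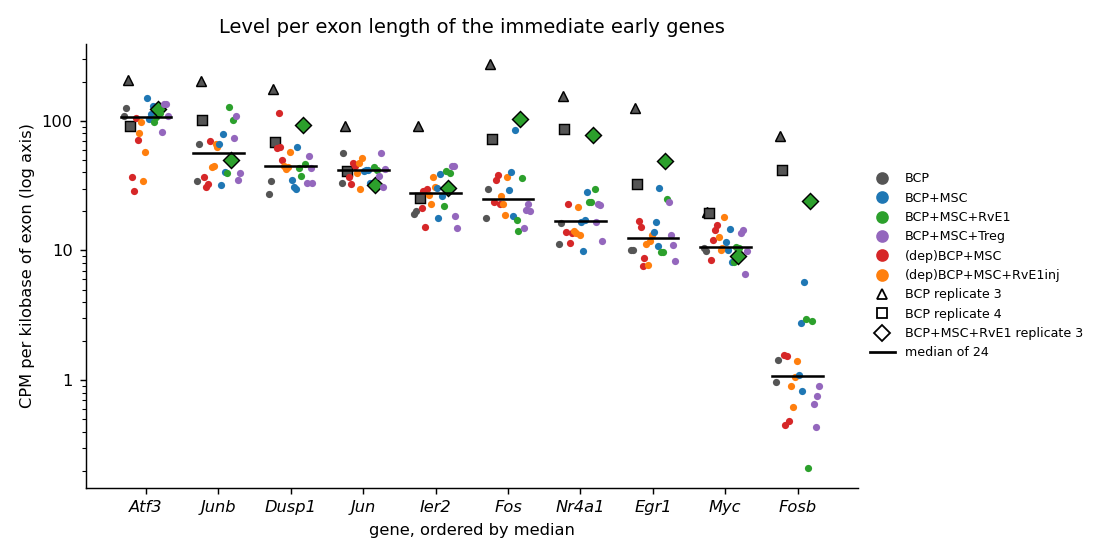
Level of each member per kilobase of exon (log axis) in the 24 animals, with genes ordered by their median (black line) and points coloured by group. BCP replicate 3 (triangles) is the highest animal for all 10 genes, and Fosb has both the lowest median (1.08) and the widest spread.

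One animal stood apart. BCP replicate 3 had the highest level of all 24 animals for each of the 10 members, with a mean z-score over the members of 2.68. BCP replicate 4 (1.00) and BCP+MSC+RvE1 replicate 3 (0.721) had the next highest scores, and they were among the 3 highest animals for 4 and 5 members, respectively. These 3 animals had no label that set them apart, and dates or batches of harvest were not given in the sources used here. Heat shock genes moved with the first of them: the mean log2 CPM of 13 heat shock genes was highest in BCP replicate 3 (7.36, against 6.00 to 6.93 in the other 23 animals). Mean log2 CPM of 12 macrophage markers was also highest in BCP replicate 3 (9.599, against 8.237 to 9.535 in the other animals). The parts that tissue handling and cell content had in these levels were not tested.

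Fos, the founding AP-1 subunit on chromosome 12 (85473890 to 85477273, plus strand, GRCm38), was at 41.6, 70.5, 642 and 170 CPM in BCP replicates 1 to 4 and at 69.2, 93.9, 43.3 and 199 CPM in BCP+MSC. RvE1 priming gave 40.2, 33.5, 244 and 85.5 CPM, and coculture with Treg 35.3, 48.0, 53.2 and 47.1 CPM. BCP+MSC+Treg was thus the group with uniformly low Fos, with an SD of 7.57 CPM around a mean of 45.9, while the highest animal of each of the other 3 groups without toxin was at 199 CPM or more. In the toxin-treated mice Fos was at 53.9 to 89.0 CPM without injected RvE1 and at 44.5 to 86.4 CPM with it.

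Fosb, its paralog on chromosome 7 (19302696 to 19310051, minus strand), is scarce in resting tissue. It was at 6.01, 8.99, 473 and 259 CPM in BCP, so that replicates 3 and 4 stood far above the other BCP animals. In BCP+MSC it was at 6.82, 17.2, 5.2 and 35.6 CPM. RvE1-primed constructs had 18.6, 1.32, 149 and 17.8 CPM, and those with Treg 4.07, 2.74, 4.74 and 5.59 CPM. All 4 BCP+MSC+Treg animals therefore lay below all 4 BCP animals. The toxin-treated groups were low as well, at 2.82 to 9.77 CPM without and 3.90 to 8.82 CPM with injected RvE1.

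Jun, a partner of Fos in AP-1 (chromosome 4, 95049034 to 95052222, minus strand), was among the steadiest members. Its group means ranged from 119 ± 20.4 CPM (SD, n = 4) with RvE1-primed MSC to 177 ± 81.2 CPM in BCP, and outside BCP replicate 3 (289 CPM) it stayed between 94.8 and 181 CPM. Junb, a partner that restrains Jun in several cell types (chromosome 8, 84974484 to 84978718, minus strand), varied more, from 97.4 ± 41.8 CPM in (dep)BCP+MSC to 232 ± 167 CPM in BCP. The highest Junb after BCP replicate 3 was in BCP+MSC+RvE1 replicate 2 (295 CPM), an animal with the lowest Fos and Fosb of all 24. The counting took no account of strand, and exons of Jun overlap Junos and those of Junb overlap Prdx2 on the opposite strand, and by the default of the counter used a read that falls in both genes is not counted.

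Atf3, a stress-induced bZIP factor that mostly represses its targets (chromosome 1, 191170296 to 191218039, minus strand), followed another pattern. It was at 235, 272, 442 and 196 CPM in BCP and at 320, 223, 243 and 278 CPM in BCP+MSC. In the toxin-treated mice it was at 79.5, 62.1, 227 and 154 CPM in (dep)BCP+MSC and at 173, 209, 74.5 and 123 CPM in (dep)BCP+MSC+RvE1inj. The 4 groups without toxin had means of 238 to 286 CPM, and the means of both toxin-treated groups were lower, 131 ± 75.6 and 145 ± 58.9 CPM. Groups accounted for 54.8% of the variance of log2 CPM of Atf3 over animals, the highest share of any member, and for 7.33% in Ier2, the lowest. Dividing 24 animals into 6 groups gives a share even without a group effect, and that baseline was not estimated. The shares of Jun, Egr1, Myc, Junb, Dusp1 and Fos lay close together, at 18.1% to 23.9%. None of the shares is read here as a group effect.

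Egr1, a zinc finger factor induced by the same kinases (chromosome 18, 34859823 to 34864984, plus strand), was at 45.2, 45.1, 561 and 146 CPM in BCP and reached 135 CPM with MSC and 218 CPM with RvE1-primed MSC. Nr4a1, an orphan nuclear receptor (chromosome 15, 101266846 to 101274792, plus strand), was at 27.8, 40.5, 385 and 213 CPM in BCP. In BCP+MSC+RvE1 Nr4a1 was at 58.7, 58.9, 190 and 73.2 CPM, whereas BCP+MSC+Treg had 41.0, 56.9, 55.6 and 29.3 CPM. The 4 BCP+MSC+RvE1 animals were all above the 4 BCP+MSC+Treg animals for Nr4a1, by a narrow margin at the nearest pair. Ier2, a small nuclear protein of little known function (chromosome 8, 84661331 to 84662852, minus strand), had group means between 36.1 ± 10.3 CPM in (dep)BCP+MSC and 59.0 ± 52.5 CPM in BCP, and apart from BCP replicate 3 (137 CPM) its highest value was 68.7 CPM.

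Dusp1 encodes a phosphatase that switches MAP kinases off and is also a classic target of the glucocorticoid receptor (chromosome 17, 26505590 to 26508519, minus strand). It was at 72.9, 92.6, 475 and 187 CPM in BCP and at 95.0, 82.6, 80.3 and 169 CPM in BCP+MSC. In (dep)BCP+MSC it was at 166, 311, 169 and 135 CPM, and in (dep)BCP+MSC+RvE1inj at 121, 114, 119 and 155 CPM. All 4 (dep)BCP+MSC animals were above the median of BCP+MSC, although the groups overlapped through BCP+MSC replicate 4. The same held for all 4 animals of BCP+MSC+RvE1, BCP+MSC+Treg and (dep)BCP+MSC+RvE1inj, so it was not particular to (dep)BCP+MSC. Myc, a growth factor induced regulator of ribosome and metabolic genes (chromosome 15, 61985391 to 61990374, plus strand), had group means between 25.9 ± 3.27 CPM (RvE1 priming) and 40.6 ± 14.8 CPM (BCP), with 54.2 and 52.6 CPM in BCP replicates 3 and 4.

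**Figure D2:**
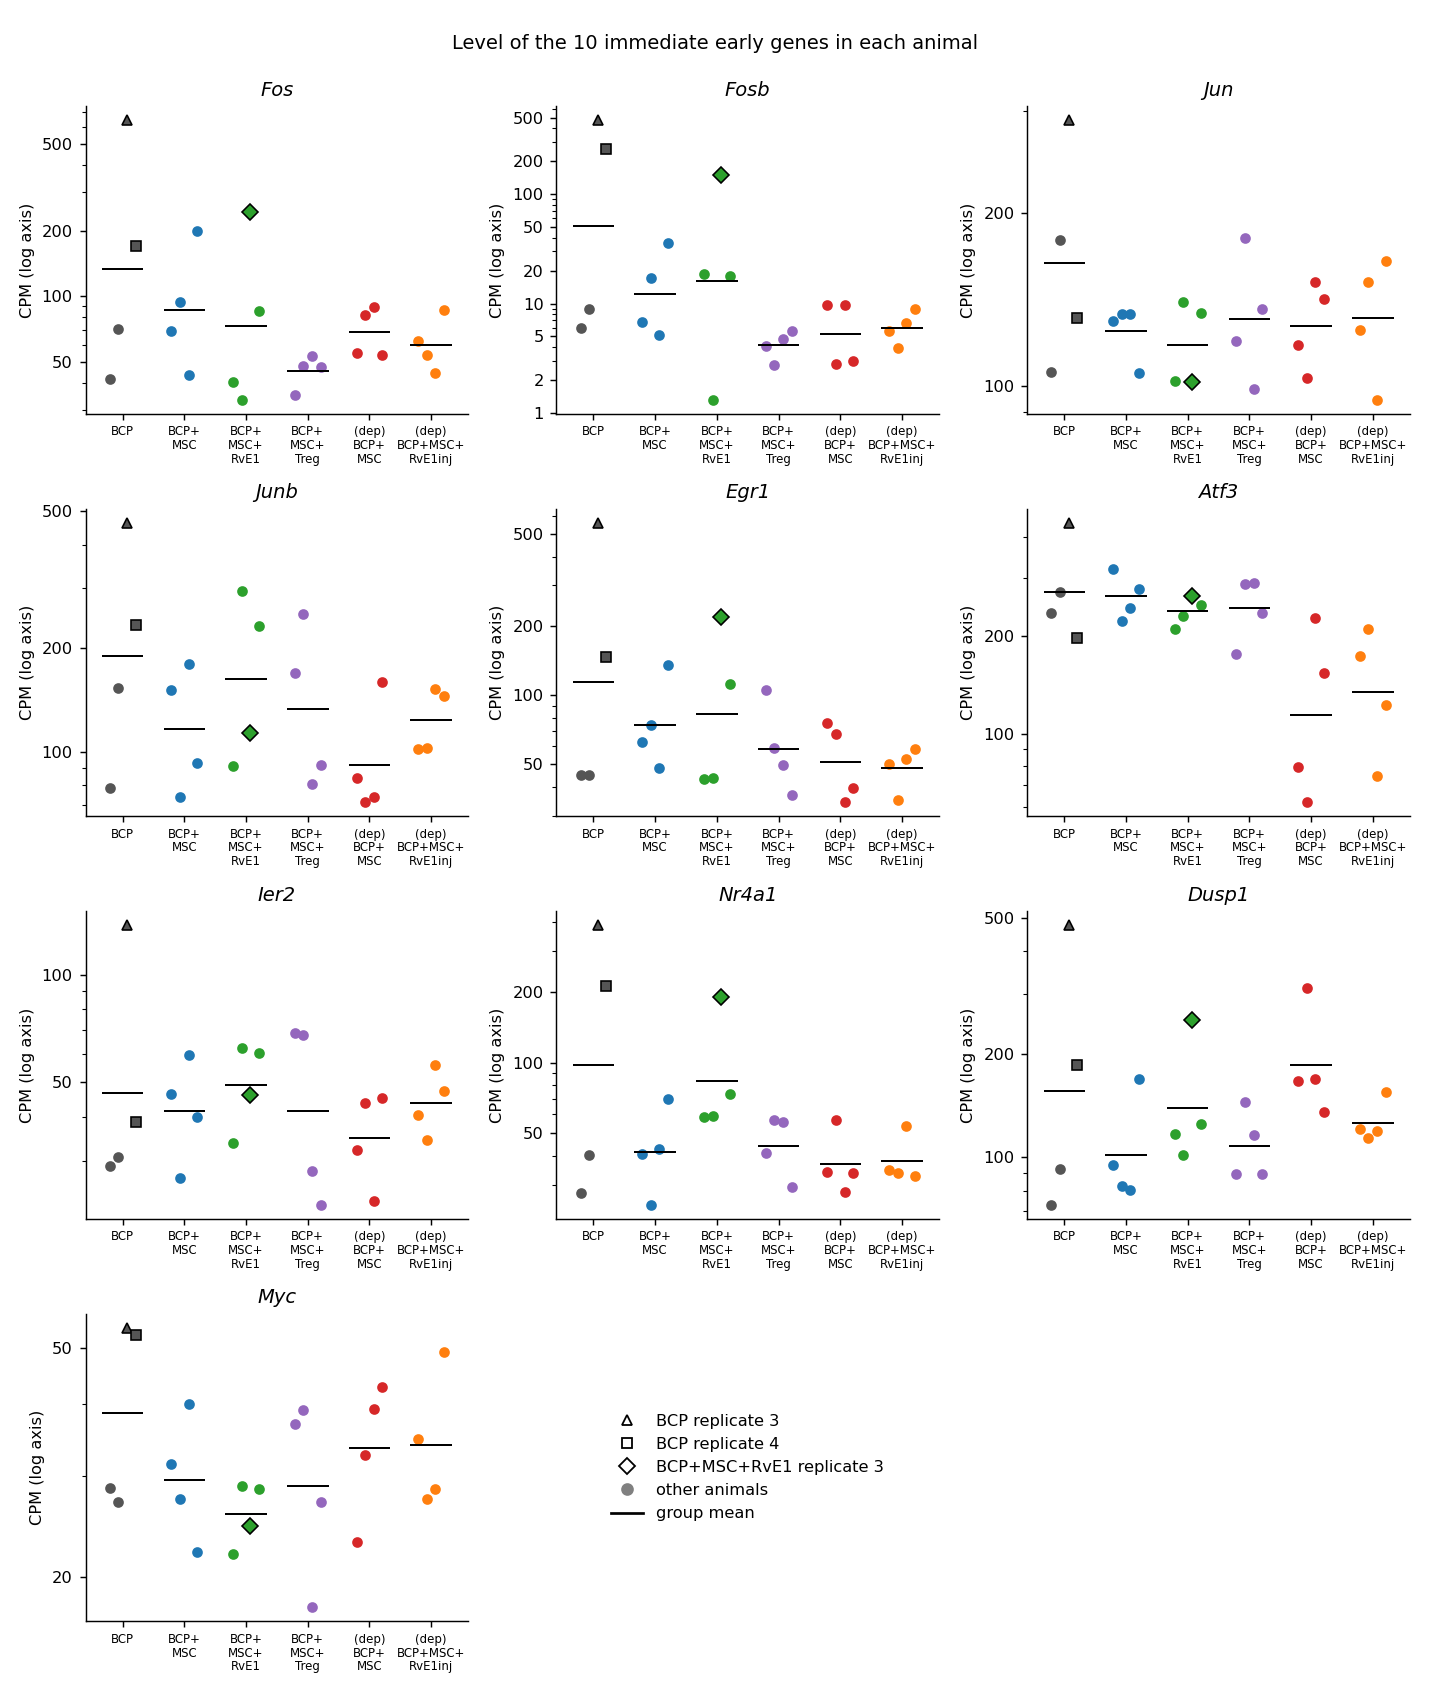
CPM of each member (log axis) in the 4 animals of each group, with BCP replicate 3 as a triangle, BCP replicate 4 as a square, BCP+MSC+RvE1 replicate 3 as a diamond and the mean of log2 CPM as a line. BCP replicate 3 tops every panel. For Atf3 the means of both toxin-treated groups are the lowest, while their animals overlap those of the groups without toxin.

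The first comparisons asked what seeding the granules with MSC, alone or primed, did relative to granules alone. The 3 contrasts share the BCP animals and are not independent. Every member had a negative log2 fold change in each of them, with medians over the 10 members of −0.93 (BCP+MSC), −0.61 (with RvE1 priming) and −0.78 (with Treg), against medians of 0.06, 0.03 and 0.03 over the 30564 genes tested. At an unadjusted p under 0.05 and a log2 fold change under −1, 2 members were lower in BCP+MSC (1.83% of all genes were), 0 after RvE1 priming (3.18%) and 4 after coculture with Treg (2.09%). At an adjusted p, edgeR's quasi-likelihood test called 0 members and 0.0% of all genes lower in each of these 3 comparisons, and 3, 2 and 5 members had an unadjusted p under 0.05 at any fold change (5.06%, 15.6% and 7.6% of all genes). The higher direction held 0 members and 2.49%, 5.36% and 3.77% of genes. DESeq2 called 0, 0 and 1 members at an adjusted p and 0.0197%, 0.322% and 0.00984% of genes, in either direction.

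Fosb had the largest differences from BCP. Its log2 fold change was −3.53 ± 1.24 (SE; adjusted p = 0.888, edgeR's quasi-likelihood test with Benjamini-Hochberg adjustment) in BCP+MSC and −5.46 ± 1.37 (adjusted p = 0.614) in BCP+MSC+Treg. It was the only member whose values did not overlap between BCP+MSC+Treg and BCP, where all values lay below those of BCP for 1.29% of genes tested, and its exact permutation p of 0.0286 is the smallest that 4 against 4 can give. DESeq2 gave an adjusted p of 0.00242 for it. The other members that were lower in BCP+MSC+Treg than in BCP were Fos, with a log2 fold change of −2.33 ± 0.72, Nr4a1, with −1.86 ± 0.61, and Egr1, with −1.67 ± 0.68 (adjusted p = 0.614 for each, edgeR; exact permutation p = 0.114, 0.4 and 0.371). In BCP+MSC the other member below the threshold was Nr4a1, with −1.90 ± 0.61 (adjusted p = 0.888, edgeR; exact permutation p = 0.314).

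The differences from BCP rested on 2 animals. Without BCP replicates 3 and 4, an alternative chosen after the data were seen, 0 members were lower in any of the 3 comparisons (1.5%, 2.62% and 1.57% of genes were), and the medians over the members were 0.36, 0.80 and 0.24. Fosb then differed from BCP on the log2 scale by 1.1 for MSC alone, 2.64 with RvE1 priming and −0.82 with Treg. In BCP+MSC+RvE1, 2 members were then higher at an unadjusted p, Fosb and Nr4a1 (log2 fold change 1.48), against 3.83% of genes. Leaving out BCP replicate 3 alone left 1 member lower in BCP+MSC+Treg, Fosb with −4.42.

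**Figure D3:**
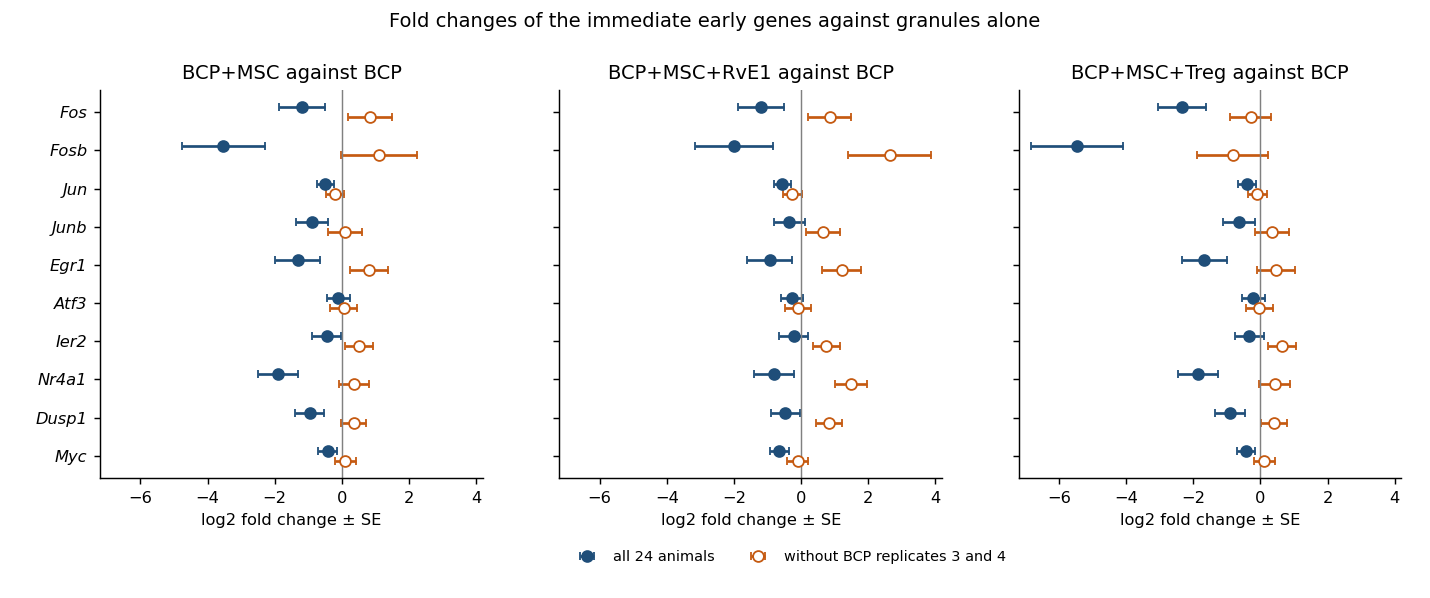
Log2 fold change ± SE of each member against BCP in the 3 cell-seeded groups without toxin, fitted with all 24 animals (filled) and without BCP replicates 3 and 4 (open). All 30 filled points lie below 0, and most open points lie at or above it.

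The cell-seeded groups were then compared with each other, to ask whether RvE1 priming or added Treg changed the early genes relative to MSC alone. BCP+MSC+RvE1 and BCP+MSC did not differ past the threshold in any member (1.39% of genes were lower and 1.11% higher, edgeR, unadjusted). The median log2 fold change over the members was 0.31, with Fosb at 1.53 ± 1.15 and Nr4a1 at 1.1 ± 0.60 (exact permutation p = 0.8 and 0.0857), and DESeq2 called Nr4a1 as higher at an unadjusted p, with 0.696% of genes. BCP+MSC+Treg and BCP+MSC also had 0 members past the threshold (1.33% lower and 1.24% higher), at a median of 0.02. Fosb was at −1.93 ± 1.18 and Fos at −1.14 ± 0.69 in this comparison, both lower than the median of BCP+MSC in 4 of 4 animals (exact permutation p = 0.0571 and 0.114).

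Between the primed groups, 1 member was lower in BCP+MSC+Treg than in BCP+MSC+RvE1, against 1.04% of all genes (1.18% were higher). This was Fosb, at −3.46 ± 1.25 (adjusted p = 1.0, edgeR's quasi-likelihood test), and without BCP+MSC+RvE1 replicate 3 its difference was −1.58. Nr4a1 did not overlap between these groups (0.573% of genes lay wholly lower), with −1.06 ± 0.60 and an exact permutation p of 0.0286, the smallest possible. At an adjusted p edgeR and DESeq2 called 0 members in each of these 3 comparisons (DESeq2 called 0.00984%, 0.0% and 0.00656% of genes), where 0, 0 and 1 had an unadjusted p under 0.05 with edgeR (3.26%, 2.72% and 2.37% of genes). These counts moved with BCP replicates 3 and 4, which enter the shared estimate of the spread. In the fit without them 1 member passed the unadjusted threshold for RvE1 priming against MSC alone (Nr4a1, higher by 1.11, where 1.11% of genes were higher and 1.32% lower). For Treg against MSC alone 2 members were lower (Fos, −1.13, and Fosb, −1.92, against 1.17% of genes), and for Treg against RvE1 3 were (Fos, −1.13, Fosb, −3.46, and Nr4a1, −1.06, against 1.04%).

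In the toxin-treated mice 0 members passed the threshold as higher than in BCP+MSC, against 6.65% of genes without and 5.07% with injected RvE1. Against BCP+MSC, (dep)BCP+MSC had 1 member lower, against 6.53% of all genes at the same unadjusted threshold, and this was Atf3, at −1.03 ± 0.34 (adjusted p = 0.0874, edgeR's quasi-likelihood test). The groups overlapped for Atf3 at 1 animal, column 4 of (dep)BCP+MSC, and the exact permutation p was 0.0571. The difference was between −1.40 and −0.79 when each animal was left out in turn, with an unadjusted p under 0.05 in 8 of 8 fits, and DESeq2 gave an adjusted p of 0.0262. It lay inside the fold threshold without replicate 1 (−0.86) or 2 (−0.79) of (dep)BCP+MSC, without BCP+MSC replicate 1 (−0.92) and with library size as a covariate (−0.95). Leaving out BCP replicates 3 and 4 left Atf3 as the 1 member lower (−1.01, against 6.24% of genes). In (dep)BCP+MSC+RvE1inj Atf3 was at −0.88 ± 0.34 against BCP+MSC (adjusted p = 0.246, edgeR's quasi-likelihood test), and its 4 animals all lay below the 4 BCP+MSC animals, as did 4.44% of all genes (exact permutation p = 0.0286). With 0 members past the fold threshold in that comparison (4.38% of genes were lower), Atf3 was the 1 member at an unadjusted p under 0.05, as it was in (dep)BCP+MSC (13.7% and 20.3% of genes, respectively). At an adjusted p edgeR called 0 members in both comparisons and DESeq2 1 and 0 (6.04% and 2.8% of genes in either direction), while edgeR called 1.34% of genes higher and 1.8% lower in (dep)BCP+MSC, and 0.242% and 0.419% with injected RvE1. These contrasts share the BCP+MSC animals.

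Tissue content moved with Atf3. The 5 animals with the lowest Atf3, all of them toxin-treated, were the same 5 that had the lowest mean level of 9 fibroblast markers, and the 3 lowest of these, (dep)BCP+MSC replicates 1 and 2 and (dep)BCP+MSC+RvE1inj replicate 3, were also the 3 lowest of the 24 for 12 macrophage markers. Mean log2 CPM of fibroblast markers was 9.96 to 11.07 in BCP+MSC, 8.79 to 9.68 in (dep)BCP+MSC and 8.45 to 9.96 in (dep)BCP+MSC+RvE1inj. Of the 9 fibroblast markers 6 were lower in (dep)BCP+MSC than in BCP+MSC at an unadjusted p and a log2 fold change under −1, and 5 in (dep)BCP+MSC+RvE1inj (6.53% and 4.38% of all genes). Of the 12 macrophage markers 1 and 0 were. The part of cell content in the level of Atf3 was not tested.

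Dusp1 had the largest positive log2 fold change of the members in (dep)BCP+MSC, at 0.87 ± 0.44 against BCP+MSC, and it missed the threshold (adjusted p = 0.262, edgeR's quasi-likelihood test, and exact permutation p = 0.0857). Dusp1 was higher than the median of BCP+MSC in 4 of 4 animals, as it was in every other group with MSC. It passed the unadjusted threshold with library size as a covariate (1.02) and without BCP+MSC replicate 4 (1.19). It also passed with the replicate number as a block (1.45), a fit that drops columns 4 and 5 of (dep)BCP+MSC. That group then consisted of replicates 1 and 2 only, and replicate 2 had its highest Dusp1. In the fit that left out BCP replicates 3 and 4 the difference was 0.89, with an unadjusted p under 0.05 but a fold change still inside the threshold, and over the fits that left out 1 animal it was 0.56 (without (dep)BCP+MSC replicate 2) to 1.19. Glucocorticoid response genes rose in the same comparison, at a median log2 fold change of 2.02. Of 12 listed genes 9 were higher at an unadjusted p (6.65% of all genes) and 6 at an adjusted p (1.34%). Among them were Fkbp5, a chaperone that damps the receptor, at 3.43 ± 0.33 (adjusted p = 5.11e-06, edgeR) and Tsc22d3, an anti-inflammatory target, at 1.78 ± 0.33 (adjusted p = 0.00269, edgeR). With injected RvE1 the list was also higher than in BCP+MSC, with 7 genes at an unadjusted p (5.07%), 2 at an adjusted p (0.242%) and a median of 1.49. Dusp1 was at 0.25 ± 0.43 there. Tissue content moved in (dep)BCP+MSC against BCP+MSC too. Of 15 skin markers 6 were higher and 1 lower at an unadjusted p (3 passed an adjusted p), at a median log2 fold change of 2.81, and their mean log2 CPM was −2.98 to −0.39 in BCP+MSC and −1.15 to 3.20 in (dep)BCP+MSC. Of 25 muscle markers 6 were higher and 1 lower, at a median of 1.08. The part of tissue content in Dusp1 and in the glucocorticoid response genes was not tested. (dep)BCP+MSC+RvE1inj and (dep)BCP+MSC did not differ past the threshold in any member (2.5% of genes were lower and 2.62% higher), and 0 had an unadjusted p under 0.05 with edgeR (7.42% of genes), 0 passed an adjusted p with DESeq2 (0.0263%) and 0 were lower without BCP replicates 3 and 4 (2.38%), at a median of 0.02. Dusp1 had the largest value in that comparison, −0.62 ± 0.43, and the exact permutation p was 0.0571.

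**Figure D4:**
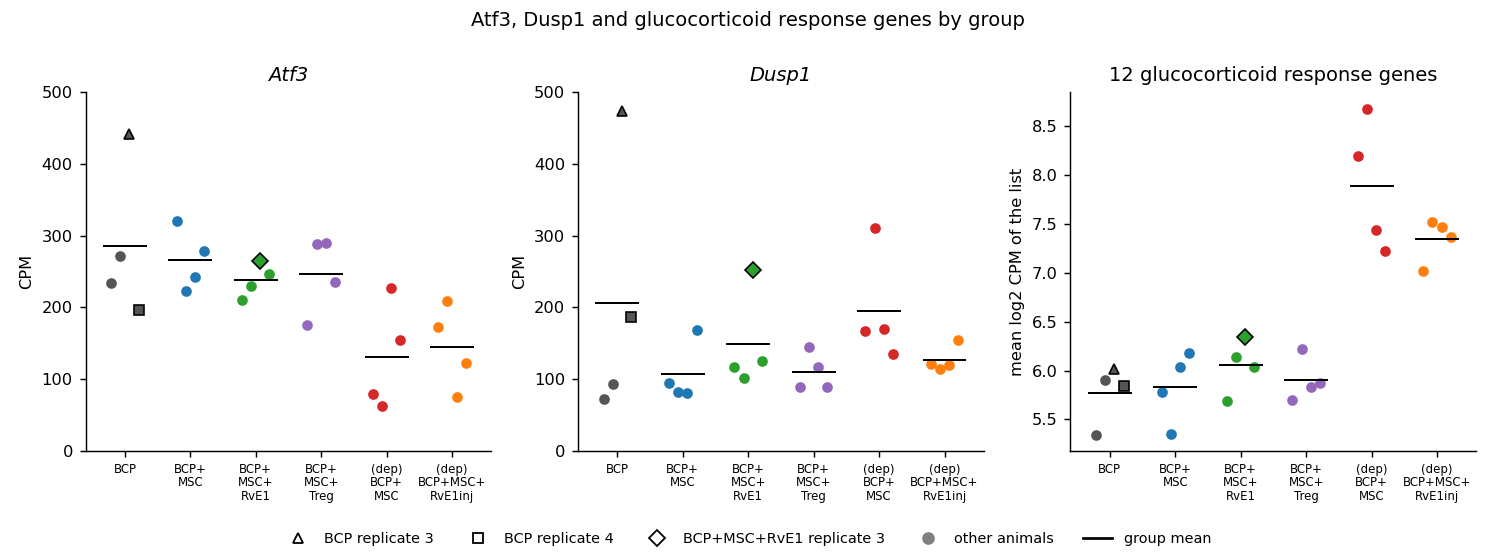
CPM of Atf3 and Dusp1 and the mean log2 CPM of 12 glucocorticoid response genes in the 4 animals of each group (lines are group means). Mean Atf3 is lower in both toxin-treated groups, with animals that overlap those of the groups without toxin, and the glucocorticoid list is higher. Dusp1 is higher than the BCP+MSC median in all 4 (dep)BCP+MSC animals, as it is in all 4 animals of every other group with MSC.

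RvE1 was given before implantation in one setting and by daily injection, with no vehicle control described, in the other. Doses differed too, and the mice were with and without toxin, so the 2 effects are set side by side. The difference between them, (dep)BCP+MSC+RvE1inj minus (dep)BCP+MSC against BCP+MSC+RvE1 minus BCP+MSC, did not pass an unadjusted p under 0.05 for any member, as it did for 4.45% of genes tested (edgeR's quasi-likelihood test; 0 members also with DESeq2, against 3.14% of genes). Dusp1 came nearest, with −1.1 ± 0.61, followed by Nr4a1, with −1.08 ± 0.84 (adjusted p = 1.0 for both, edgeR). When BCP replicates 3 and 4 were left out these were −1.09 and −1.07, and both passed an unadjusted p under 0.05, as did 4.23% of genes. No BCP animal enters this difference, so the estimates hardly moved, and it was the shared estimate of the spread that changed. Those animals were left out after the data were seen, so passing in this fit is no further support for a difference.

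Over all 6 groups together, Fosb was the only member that differed at an adjusted p (0.0189, edgeR's quasi-likelihood F test), against 4.75% of all genes. At an unadjusted p 5 members differed, which were Fosb (0.000509), Nr4a1 (0.00409), Atf3 (0.0107), Fos (0.0325) and Egr1 (0.0407), against 20.4% of all genes, and DESeq2 called the same 5 at an adjusted p, with 13.0% of all genes. With the sex-linked gene covariate or the replicate block Atf3 took the place of Fosb as the only member at an adjusted p (0.0386 and 0.0262, edgeR, against 4.83% and 5.41% of genes). The block fit drops columns 4 and 5 of (dep)BCP+MSC and keeps replicates 1 and 2, in which Atf3 was lower. With filterByExpr or the muscle covariate Nr4a1 passed beside Fosb. The adjusted p of Fosb was 0.109 without BCP replicates 3 and 4 (edgeR), and 0 members then passed (3.11% of genes did). Atf3 kept its share of variance between groups without these animals (56.1%), whereas that of Fosb went from 36.0% to 25.4%. The share that groups give without any effect was not estimated here either.

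The members did not vary as 1 block. Over the 24 animals, Fos was correlated with Fosb (Pearson r = 0.873, Spearman rho = 0.67), Egr1 (0.842 and 0.554), Dusp1 (0.772 and 0.656) and Nr4a1 (0.749 and 0.21). The Benjamini-Hochberg adjusted permutation p over the 9 members for Pearson r was 4e-05, 4e-05, 0.0002 and 0.000652, and for rho 0.00328, 0.0167, 0.00328 and 0.623. Fos was not correlated past the threshold with Jun (r = 0.396), Atf3 (0.327), Ier2 (0.319), Myc (0.296) or Junb (0.266). Without the 2 animals farthest from the median of Fos, BCP replicate 3 and BCP+MSC+RvE1 replicate 3, r was 0.738 for Fosb, 0.595 for Egr1, 0.521 for Dusp1 and 0.399 for Nr4a1, so the relation of Nr4a1 to Fos rested largely on those animals.

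With group means removed, the correlation of Fos with Dusp1 was 0.903, with Fosb 0.86, with Egr1 0.849 and with Nr4a1 0.795. With group means kept, but over the 21 animals other than BCP replicates 3 and 4 and BCP+MSC+RvE1 replicate 3, r with Fos was 0.646 for Fosb, 0.474 for Egr1, 0.46 for Dusp1 and 0.0764 for Nr4a1, and only that of Fosb passed an adjusted permutation p (0.0162). Junb and Ier2 formed another pair (r = 0.836, and 0.813 without BCP replicates 3 and 4), and Jun went with Myc (0.626 and 0.565). Atf3 and Dusp1 were the only pair of the 45 with a negative r over all 24 animals (−0.0978). Without BCP replicates 3 and 4 it was −0.436, and 17 pairs were negative. Over all 45 pairs r had a median of 0.396 and was over 0.7 in 9 pairs, against a median of 0.136 and 2 pairs without BCP replicates 3 and 4. All points come from libraries of very different depth, which these values share.

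**Figure D5:**
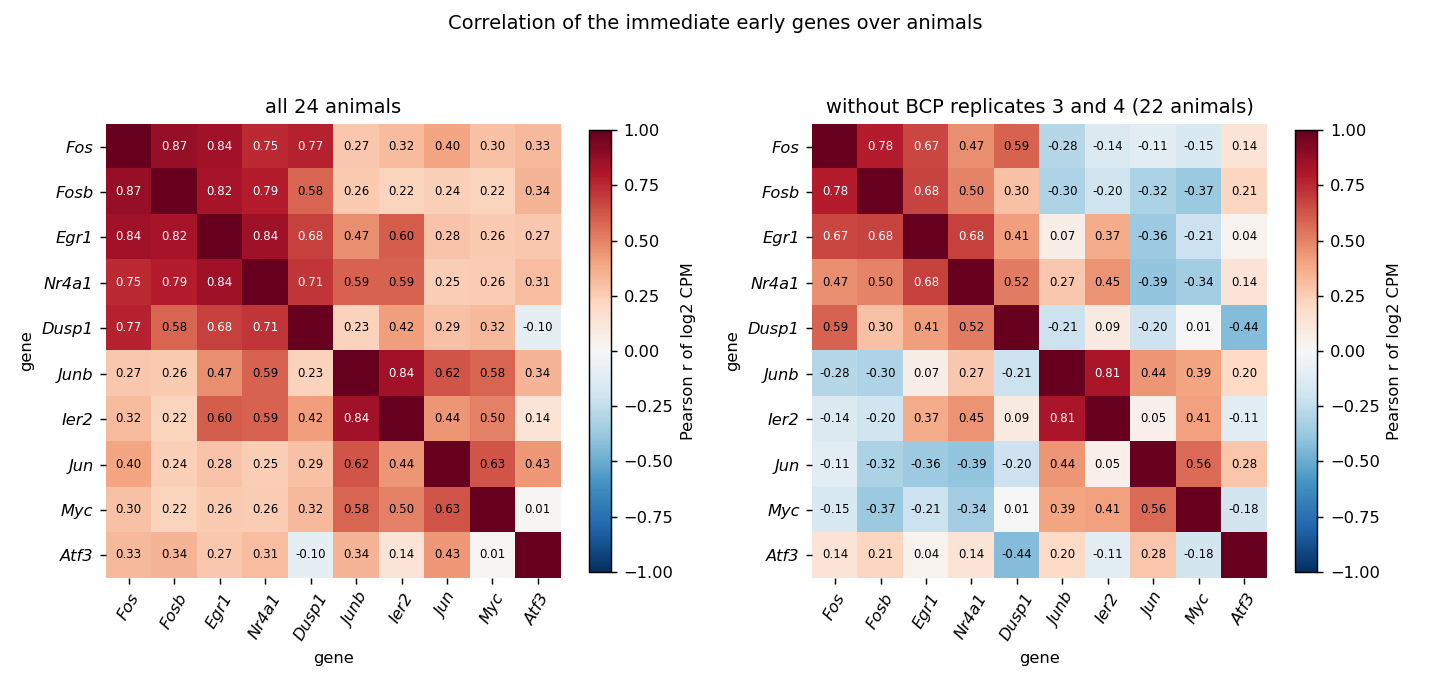
Pearson r of log2 CPM for each pair of members over all 24 animals (left) and over the 22 without BCP replicates 3 and 4 (right), with colour from −1 (blue) to 1 (red). Fos, Fosb, Egr1, Nr4a1 and Dusp1 form a block at the upper left that weakens on the right, and Junb with Ier2 keeps its high value.

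Among 14841 other genes with a mean of at least 1 CPM, those whose log2 CPM over the 24 animals was most like the mean z-score of the members were Zfp36 (r = 0.891), which encodes an RNA-binding protein that destabilizes cytokine mRNAs, Csrnp1 (0.879), Ccn1 (0.865), a matricellular protein, Dnajb1 (0.862), a heat shock cochaperone, Btg2 (0.841), Coq10b (0.783), Hspa1a (0.78), an inducible heat shock protein, Arrdc4 (0.777), Nr4a2 (0.776), a paralog of Nr4a1, and Rgs16 (0.773). With group means removed the 5 most alike were Zfp36 (0.934), Gm26532 (0.913), Csrnp1 (0.901), Ccn1 (0.884) and Dnajb1 (0.872). For Zfp36 r was 0.811 without BCP replicates 3 and 4, and for Dnajb1 0.39.

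A list of 50 further immediate early genes followed the members in part. At an unadjusted p and a log2 fold change under −1, 5 were lower with MSC alone relative to BCP (1.83% of all genes were), led by Nr4a3 (−1.53 ± 0.40), Nr4a2 (−1.99 ± 0.54) and Errfi1 (−1.61 ± 0.44). In BCP+MSC+Treg 7 were lower (2.09% of all genes), led by Nr4a2 (−2.36 ± 0.54), Nr4a3 (−1.42 ± 0.40) and Dusp4 (−1.30 ± 0.41). In BCP+MSC+RvE1, 6 were lower and 1 higher (3.18% and 5.36% of all genes), led by Dusp4 (−1.60 ± 0.42), which encodes another MAP kinase phosphatase, Egr4 (−3.69 ± 1.15) and Nr4a2 (−1.64 ± 0.53). None of the genes named for these 3 comparisons passed an adjusted p with edgeR. Egr4 was near the floor of 3 counts, with 0 to 23 counts in BCP+MSC+RvE1 and 29 to 45 in BCP. Without BCP replicates 3 and 4, Nr4a2 was at −0.02, 0.35 and −0.37 in the comparisons of MSC alone, RvE1 priming and Treg with BCP, while Dusp4 stayed lower in BCP+MSC+RvE1 (−1.71) and BCP+MSC+Treg (−1.42).

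In (dep)BCP+MSC against BCP+MSC, 5 of the 50 were higher and 2 lower (6.65% and 6.53% of all genes). Per1 (2.27 ± 0.41, adjusted p = 0.00271), a clock gene that glucocorticoids induce, Maff (1.25 ± 0.28, adjusted p = 0.0106) and Mafk (1.03 ± 0.27, adjusted p = 0.0305), small Maf factors, passed an adjusted p with edgeR. The other 12 AP-1 and related bZIP subunits had 0 genes past the unadjusted threshold in any of the 9 comparisons between groups, and so had the 29 kinases and factors upstream of immediate early genes, by edgeR. Of all genes, 1.11% to 6.65% were higher and 1.04% to 6.53% lower per comparison. At such shares few genes of lists this short would be called, so these zeros say little about either list. Neither list was counted with another tool. Of 13 heat shock genes, 3 were lower with MSC than in BCP (1.83% of all genes were), namely Dnajb1 (−1.06 ± 0.27), Hspa1b (−1.45 ± 0.45) and Hspa1a (−1.42 ± 0.49). Without BCP replicates 3 and 4 these were at −0.32, −0.71 and −0.28.

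Of 10 genes of the Myc family and its partners, 1 was higher and 2 were lower in (dep)BCP+MSC than in BCP+MSC at the unadjusted threshold (6.65% and 6.53% of all genes). Mycl, a Myc paralog, was higher there, at 2.61 ± 0.67 (adjusted p = 0.0302, edgeR), and Mxd3, which competes with Myc for its partner Max, was lower, at −1.72 ± 0.47 (adjusted p = 0.04, edgeR). Mxd3 had 3 counts in (dep)BCP+MSC replicate 1, which is the floor. Myc was at 0.19 ± 0.28 in the same comparison. None of 19 known Myc targets of growth and ribosome making passed the unadjusted threshold in any of the 9 comparisons by edgeR, the only tool run on this list. Of all genes, 1.11% to 6.65% were higher and 1.04% to 6.53% lower per comparison, so few calls would be due in a list this short.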

How the data were processed

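RNA of 24 constructs (1 mouse each, 4 per group) was sequenced from stranded mRNA libraries. The authors aligned reads with HISAT2 2.0.5 and deposited raw counts per gene made with featureCounts 1.5.2 on GENCODE M13, without use of strand, per the file headers. The submitters' notes also name STAR, Picard and DESeq2. The counting command names 28 alignments, of which 4 have no column and were not used here.

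Groups were taken from the sample labels. Of 51138 genes, 39183 had a count and 30564 whose counts summed to 10 or more were tested, with gene symbols matched for 50376. Counts were scaled by TMM, and log2 CPM used a prior count of 2. One quasi-likelihood fit over the 6 groups (edgeR 4.0.16 in R 4.3.3) gave 9 comparisons, the difference between RvE1 injection and priming, and an F test over groups, with Benjamini-Hochberg adjustment over all genes tested. The thresholds were p under 0.05 and an absolute log2 fold change over 1. Exact permutation tests were two-sided, with 70 arrangements of 4 against 4, and correlations used 100000 permutations. The tests were checked on simulated counts. Levels per length divided CPM by exon length.

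All 10 members were named, with at most 3 genes per list and comparison (smallest edgeR p among those past the unadjusted threshold), the 10 genes most alike and the 5 most alike with group means removed. The members and lists were chosen with earlier results of these data known.

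Alternatives were RLE scaling, other filters, DESeq2 1.42.0, covariates for muscle markers, library size or sex-linked genes, the replicate number as a block, fits of only the groups compared, and leaving out each sample. Fits without BCP replicates 3 and 4, and without these and BCP+MSC+RvE1 replicate 3, were chosen after seeing the data. Figures were drawn with matplotlib 3.10.9 in Python 3.11.15.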

Additional observations from a re-analysis of the deposited data

Results flagged for a closer look

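Of 60 sets of 4 animals (10 members in 6 groups) tested with Dixon's gap ratio, 2 exceeded the 95% critical value for 4 samples, where chance gives about 3. Jun in BCP+MSC replicate 4 was at 105 CPM, below 129 to 133 CPM in the other 3 animals (ratio 0.876). Nr4a1 in (dep)BCP+MSC+RvE1inj replicate 3 was at 53.4 CPM, above 32.8 to 34.7 CPM in the others (ratio 0.883).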

How the results depend on the processing

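Counts of members past the unadjusted threshold moved most with the animals left out. They are given in this section without the share of all genes called in the same fit, and so describe only how calls moved. Without BCP replicates 3 and 4 they were 0 (from 2), 2 (from 0) and 0 (from 4) for BCP+MSC, BCP+MSC+RvE1 and BCP+MSC+Treg against BCP. They were 1 (from 0), 2 (from 0) and 3 (from 1) for RvE1 against MSC, Treg against MSC and Treg against RvE1, and 2 (from 0) for injection against priming, and 0 members passed the F test at an adjusted p (from 1). Leaving out BCP+MSC+RvE1 replicate 3 as well gave 0, 0 and 2 for MSC against BCP, Treg against BCP and Treg against MSC, 2 for the F test (from 5, unadjusted), 0 adjusted, and 1 member correlated with Fos (from 4).

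Without BCP replicates 3 and 4, 1, 3 and 4 of the 10 members still had a negative difference from BCP in BCP+MSC, with RvE1 priming and with Treg. Of the differences that had an unadjusted p under 0.05 with all animals, the following turned positive, with the second value also without BCP+MSC+RvE1 replicate 3. In BCP+MSC these were Fosb (1.1 and 1.11), Nr4a1 (0.37 and 0.38) and Dusp1 (0.35 and 0.37), and in BCP+MSC+Treg Egr1 (0.47 and 0.48), Nr4a1 (0.42 and 0.42) and Dusp1 (0.41 and 0.41). The r with Fos turned negative for Junb (−0.285 and −0.327), Ier2 (−0.141 and −0.237), Myc (−0.151 and −0.0576) and Jun (−0.114, first set only), and with 1 animal left out it ranged from −0.0917 to 0.528 for Jun, −0.133 to 0.379 for Junb and −0.141 to 0.396 for Ier2, each lowest without BCP replicate 3.

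Leaving out 1 animal gave 0 to 6 members for MSC against BCP (0 without BCP replicate 3, 6 without BCP replicate 1), 0 to 4 for RvE1 against BCP (4 without BCP+MSC+RvE1 replicate 3), 1 to 5 for Treg against BCP (1 without BCP replicate 3), 0 to 1 for RvE1 against MSC, 0 to 1 for Treg against RvE1, 0 to 2 for (dep)BCP+MSC against BCP+MSC (0 to 1 adjusted, 1 without column 4), 0 to 1 for (dep)BCP+MSC+RvE1inj against BCP+MSC, 0 to 1 for injection against priming, and 3 to 7 unadjusted and 0 to 2 adjusted for the F test.

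DESeq2 called 1 member at an adjusted p for Treg against BCP, 1 for (dep)BCP+MSC against BCP+MSC and 5 for the F test, and 1 unadjusted for RvE1 against MSC. Fits of only the groups compared gave 1 for MSC against BCP, 1 for RvE1 against MSC, 2 for Treg against MSC, 2 for Treg against RvE1 and 1 for (dep)BCP+MSC+RvE1inj against BCP+MSC. The sex-linked covariate gave 0 for MSC against BCP, 1 for Treg against MSC, 1 for (dep)BCP+MSC+RvE1inj against (dep)BCP+MSC, 2 for it against BCP+MSC, and 1 adjusted for (dep)BCP+MSC against BCP+MSC. The F test gave 3 (unadjusted) with library size as covariate, and 2 (adjusted) with filterByExpr or the muscle covariate, while the sex-linked covariate and the replicate block gave Atf3 in place of Fosb. The causes were not tested.

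With the replicate number as a block, which drops columns 4 and 5 of (dep)BCP+MSC, the counts were 1 for MSC against BCP, 0 for Treg against RvE1, 2 (1 adjusted) for (dep)BCP+MSC against BCP+MSC, 2 for (dep)BCP+MSC+RvE1inj against (dep)BCP+MSC, 2 for injection against priming and 3 for the F test. The numbers gave no clear sign of pairing the animals. Deviations of same-numbered samples correlated at a median r of 0.00449 over 50 pairs, 19 of them over 0.1. For samples of other numbers the median was −0.0408 over 150 pairs, 54 of them over 0.1. A harvest or batch shared by same-numbered animals was not tested. With 4 animals a group and a 17.0-fold range of depth, smaller differences could not be resolved, although no member was counted fewer than 22 times.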
